A study of Mus musculus with 4 samples.

Results

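Ribosomal RNA-like loci were taken as 5 named rows of the gene count table, Mir6236, CT010467.1, Gm15564, Gm42418 and AY036118, out of 52459 rows. They were found by exact match of the row name, and they had been picked because their counts differed between the ages in these same libraries, so that their age values are given as a description without a test. Intestinal stem cells (ISCs), the crypt base cells that renew the gut epithelium, were sorted from small intestines of WT C57/Bl6 mice of 2 months (ISC_2mth) or 22 months (ISC_22mth), with 2 libraries per age. Cells of 5 animals were pooled for each library. The SM6 gate took cells that were EPCAM+, CD166+, EPHB2high, CD44high, CD24med and GRP78low and that carried neither CD31 nor CD45, and no group carried a transgene or a treatment. The molecule is labelled as polyA RNA, and the RNA was amplified along the whole transcript by single primer isothermal amplification (SPIA), without molecular identifiers. Because animals were pooled, the spread between libraries is a spread between pools and not between mice, and p-values below measure only that spread.

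Ribosomal RNA (rRNA) makes up most of the RNA of a cell. RNA polymerase I transcribes it in the nucleolus from tandem repeats of ribosomal DNA as one long precursor, which is cut and modified into the rRNA of the small ribosomal subunit and most of that of the large one, while RNA polymerase III makes the short 5S RNA and mitochondria make their own. Library methods aim to leave rRNA out, and reads of it that remain can be counted on annotated genes that carry copies of rRNA sequence outside the repeats. Dividing stem cells are known for a high demand for new ribosomes.

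The 5 loci lie in 3 places of the genome (GRCm38, GENCODE vM21 annotation). CT010467.1, Gm42418 and AY036118 lie on top of each other on chromosome 17. CT010467.1 is annotated as an rRNA gene on the minus strand at chr17:39846353-39848827, with 2 transcripts and 2466 exon bases. Gm42418, a lincRNA on the plus strand at chr17:39846958-39848788, shares 1822 of its 1831 exon bases with it, and AY036118, a lincRNA on the minus strand at chr17:39847113-39848035, shares all of its 923. This leaves 644 exon bases to CT010467.1 alone, 9 to Gm42418 and 0 to AY036118. The RefSeq table of GRCm38.p6 names the stretch chr17:39846354-39848202 Rn18s-rs5, a pseudogene of the small-subunit rRNA of 1849 bases, lists Gm42418 among its synonyms, and places AY036118 elsewhere, at chr17:39848112-39898385.

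The stretches below carry the rRNA identity of the chromosome 17 loci and show where they share bases. All 3 are read on the plus strand. The first holds the lowest coordinates of CT010467.1, which read as the 5′ end of the small-subunit rRNA although the annotation puts the gene on the minus strand. In the second, capitals mark the bases shared with Gm42418, and in the third, capitals mark bases shared by all 3 loci. Their positions are chr17:39846353-39846442, chr17:39846913-39847002 and chr17:39847113-39847172.
CT010467.1 at its lowest coordinates: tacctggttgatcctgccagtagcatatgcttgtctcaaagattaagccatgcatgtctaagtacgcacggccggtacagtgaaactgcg
CT010467.1 at the start of Gm42418: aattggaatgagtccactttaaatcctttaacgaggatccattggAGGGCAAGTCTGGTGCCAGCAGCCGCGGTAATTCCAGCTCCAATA
AY036118 at its lowest coordinates: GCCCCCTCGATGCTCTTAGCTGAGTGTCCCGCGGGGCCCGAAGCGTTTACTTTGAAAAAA

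Mir6236 is annotated as a microRNA gene of 123 bases on the plus strand of chromosome 9, at chr9:110281287-110281409, inside the RefSeq lncRNA Gm39429 (chr9:110266638-110282670). No 50-base stretch of Mir6236 occurred in the transcripts of another gene. The libraries were made from whole transcripts, so that counts on this row are reads on the locus, and not a measurement of the mature microRNA.

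Gm15564 is annotated as an antisense lncRNA on the minus strand of chromosome 16, at chr16:35966752-35983230, with 3 transcripts and 821 exon bases, none of them within exons of another gene. Of its 816 stretches of 50 bases, 3 (0.368%) also occurred in Lars2, the gene of the mitochondrial leucyl-tRNA synthetase on chromosome 9. They lie in 1 run of 52 bases that Lars2 carries in its 3′ UTR at chr9:123462048-123462099, and 30 of these bases are shown as they stand in Gm15564 at chr16:35981766-35981795 on the minus strand.
Gm15564 and Lars2 shared bases: aattcaccaagcgttggattgttcacccac
The likeness of Mir6236 and Gm15564 to the large-subunit rRNA was not measured here, so the name ribosomal RNA-like rests on sequence and annotation for the chromosome 17 loci alone.

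**Figure D1:**
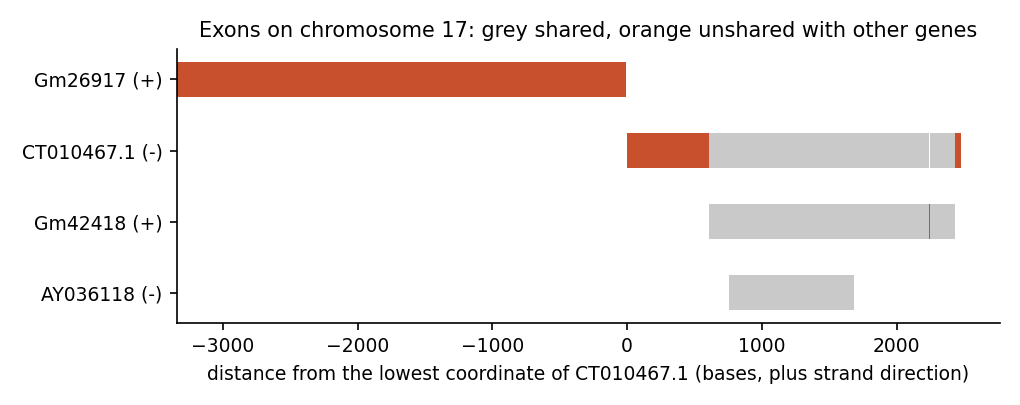
Exons of the chromosome 17 loci and of Gm26917, the lincRNA next to them, by distance in bases from the lowest coordinate of CT010467.1, with the strand after each name. Grey parts lie in exons of more than 1 gene and orange parts in exons of 1 gene only, and AY036118 has no orange part.

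The libraries held between 11662654 and 15975698 counts on genes, of which between 3852178 and 4593004 lay outside the mitochondrially encoded genes (named mt-). Levels are given as TMM-normalized CPM (counts scaled to one common depth), where 3 counts, the least taken as a signal, came to between 0.198 and 0.245 CPM. All 13 crypt stem cell markers were detected at a summed level of between 3126 and 3365 CPM, and none passed FDR 0.05 between the ages in edgeR. The study's own list, made with limma voom at the same threshold, held Axin2 and Rnf43 as lower in old ISCs and Slc12a2 as higher. It also held Ephb2, whose protein the gate requires, as lower. Mitochondrially encoded genes took 62.6% and 65.7% of counts in ISC_2mth, against 73.8% and 72.9% in ISC_22mth. All 5 Paneth cell markers were detected, with a summed level of 684, 520, 1592 and 586 CPM in ISC_2mth replicates 1 and 2 and ISC_22mth replicates 1 and 2, and 2 of them were called higher in ISC_22mth (edgeR FDR under 0.05, as for 1.63% of all genes). All 5 enterocyte markers were detected too, summing to 63.0, 75.2, 259 and 154 CPM, and 2 of them were called higher in ISC_22mth. Of 3 tested tuft cell markers and 5 sorting antigens that the gate requires, 1 each was called higher in ISC_22mth. Enteroendocrine markers summed to 24.4 CPM in ISC_2mth replicate 1 and to between 70.2 and 122 CPM in the other pools. Leukocyte markers (7) summed to between 2.13 and 4.68 CPM with Cd79a and Itgax at 0, and the 3 red cell markers were at 0. The part of these shifts in the values of the loci was not tested.

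CT010467.1 held most of the counts of the 5 loci, at 18775 and 14303 in ISC_2mth against 6131 and 7295 in ISC_22mth. By count and without regard to length, it ranked 5 and 10 among the genes outside the mt- genes in ISC_2mth, against 36 and 26 in ISC_22mth. Scaled, these were 1293 and 946 CPM, against 463 and 597 CPM. Both old pools lay below both young pools, with ISC_2mth replicate 1 the highest and ISC_22mth replicate 1 the lowest. The mean fell from 1120 ± 245 CPM to 530 ± 94.3 CPM (SD, n = 2 pools each), a log2 fold change of -1.08 (standard error 0.14), or 2.11-fold lower in ISC_22mth. In bulk RNA of this kind, fewer cells that express a gene and less of its RNA per cell cannot be told apart. A difference between the libraries in how much rRNA remained after preparation cannot be told apart from them either.

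Mir6236 had 2316 and 2133 counts in ISC_2mth against 410 and 523 counts in ISC_22mth. This came to 159.5 and 141 CPM for the young pools and 30.98 and 42.8 CPM for the old ones. The 2 ages did not overlap, and even the lowest young pool stood well above the highest old pool. The mean level fell from 150 ± 13.0 CPM to 36.9 ± 8.34 CPM (SD, n = 2 pools each), a log2 fold change of -2.03 (standard error 0.15), or 4.08-fold lower. Its rank by count among the genes outside mt- genes went from 187 and 269 to 2558 and 1817. Of the 13692 genes that passed the filter on low counts, 158 (1.15%) had a lower fold change, against 622 (4.54%) for CT010467.1.

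Gm15564 had 1491 and 1453 counts in ISC_2mth against 600 and 741 counts in ISC_22mth. Its level of 103 and 96.1 CPM at the young age stood against 45.3 and 60.6 CPM at the old age. The young pools were close to each other and both above the old ones. The mean fell from 99.4 ± 4.65 CPM to 53.0 ± 10.8 CPM (SD, n = 2 pools each), a log2 fold change of -0.91 (standard error 0.14), or 1.88-fold lower, with 846 genes (6.18%) below it.

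Gm42418 and AY036118, the lincRNAs laid over CT010467.1, had 0 counts in all 4 pools. With 9 and 0 exon bases of their own, these rows set no limit on the level of their RNA. Neither passed the filter, and no fold change can be given. They shared this with other rows of their kind. Of 1047 genes whose exons lie wholly within exons of other genes, 1026 (98.0%) were at 0 in every library, against 21242 of 37346 genes (56.9%) whose exons meet no other gene. The share was 412 of 415 (99.3%) where the covering genes lay on the opposite strand only, the position that Gm42418 has over nearly all of its length, and 67 of 67 where such a gene had at least 1000 counts. It was 175 of 182 (96.2%) for genes covered on the same strand by a gene with at least 1000 counts. Whether strand was used in the counting is not given in the sources used here, so counts of CT010467.1 cannot be assigned to a strand. It is not shown either which of its exon bases, shared or not, these counts lie on.

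**Figure D2:**
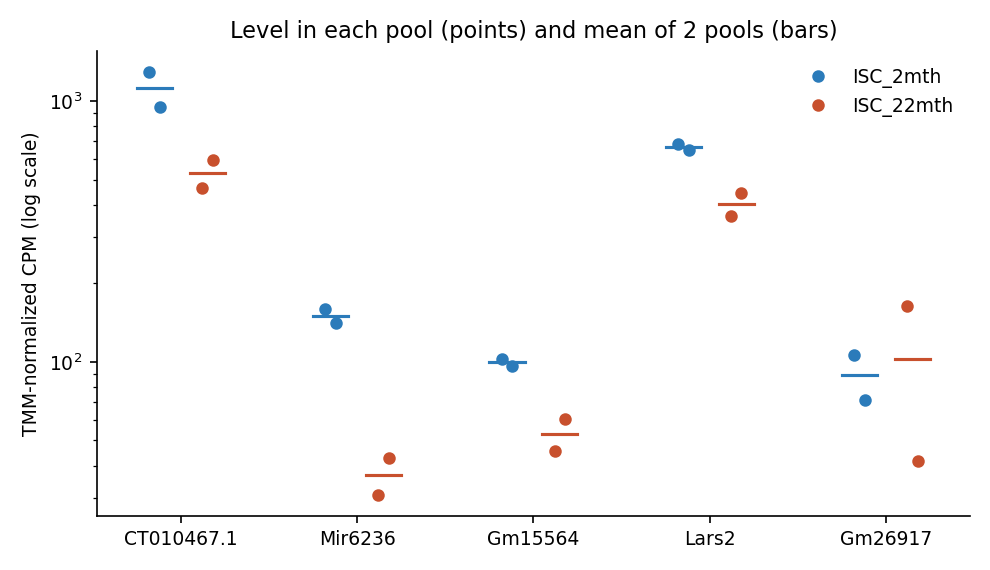
Level of the 3 loci with counts, and of Lars2 and Gm26917, in each pool (points, TMM-normalized CPM on a log scale) with the mean of the 2 pools of each age (bars). The ISC_22mth points lie below the ISC_2mth points for CT010467.1, Mir6236, Gm15564 and Lars2, while those of Gm26917, at 163 and 41.8 CPM, lie on both sides.

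All 3 loci with counts were thus lower in both old pools than in both young pools, as were 23.6% of all genes tested, while 47.6% did not overlap between the ages in one direction or the other. They also had an FDR under 0.05 in edgeR's quasi-likelihood fit over all genes, as did 2.26% of genes (0.628% lower and 1.63% higher), and since the loci were picked from this contrast, nothing is read from either count. Their fold changes had a median of -1.08 on the log2 scale, beside a median of -0.0049 over all 13692 genes.

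As a share of the sequenced material, the 5 loci together took 0.194% and 0.134% of all counts in ISC_2mth against 0.0447% and 0.0601% in ISC_22mth. The 95% Wilson intervals ran from 0.191% to 0.196% and from 0.132% to 0.136% at the young age, and from 0.0437% to 0.0458% and from 0.0589% to 0.0614% at the old age, and cover counting error only, since SPIA copies were counted as reads and not as molecules. No interval met another, within an age or between ages. With the mt- genes left out of the total, the shares were 0.517% and 0.390%, against 0.171% and 0.222%. The old pools remained below the young ones, though by less, the log2 ratio of the mean shares going from -1.64 of all counts to -1.21 of counts outside mt- genes.

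**Figure D3:**
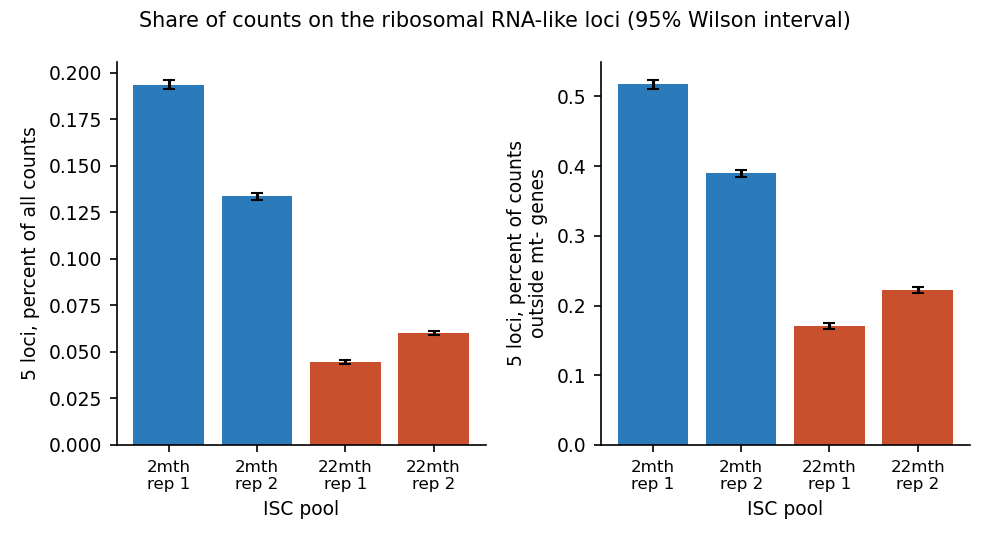
Share of counts on the 5 loci in each ISC pool, in percent of all counts (left) and of counts outside mt- genes (right), with 95% Wilson intervals for counting error. The ISC_2mth bars stand between 0.134% and 0.194% on the left and at 0.390% and 0.517% on the right, above both ISC_22mth bars in each panel.

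CT010467.1 made up 83.1% and 80.0% of the counts on the 5 loci in ISC_2mth, against 85.9% and 85.2% in ISC_22mth. Set against it, the other loci did not move alike. There were 12.3 and 14.9 counts on Mir6236 per 100 counts on CT010467.1 in ISC_2mth, but 6.69 and 7.17 in ISC_22mth. For Gm15564 these ratios were 7.94 and 10.2 against 9.79 and 10.2, so that the ages overlapped. Mir6236 thus stood apart from the other loci, with 155 and 147 counts per 100 counts on Gm15564 in ISC_2mth, against 68.3 and 70.6 in ISC_22mth. With each pool left out in turn, its log2 fold change stayed between -2.28 and -1.81, below that of CT010467.1 (-1.29 to -0.84) and of Gm15564 (-1.13 to -0.71), whose ranges overlapped. The other scalings move all genes alike and cannot change this order.

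**Figure D4:**
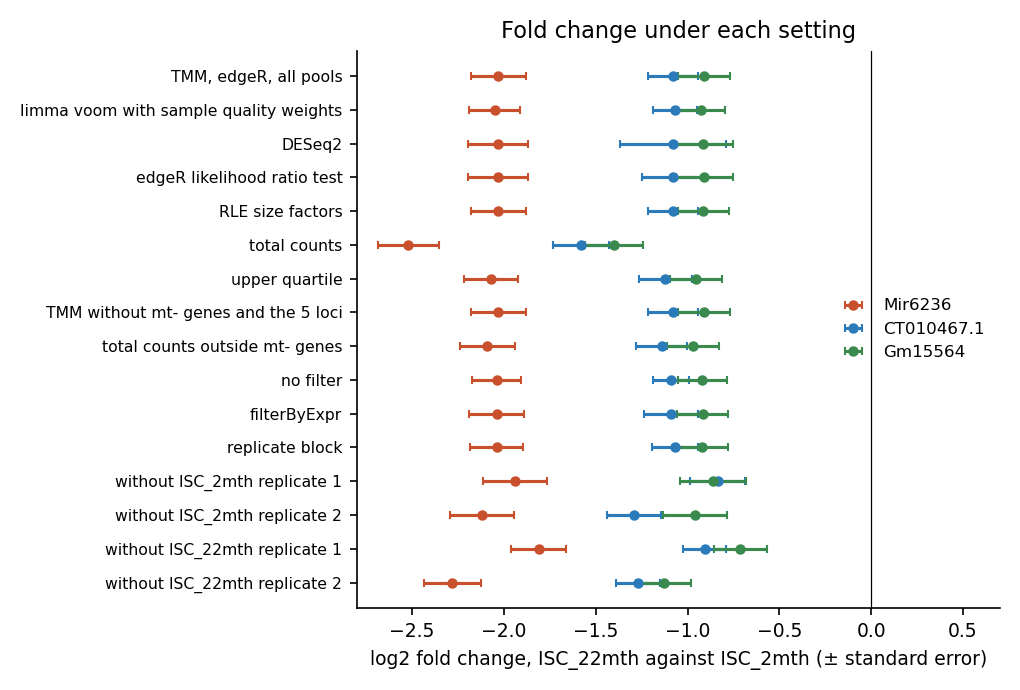
Log2 fold change of Mir6236, CT010467.1 and Gm15564, ISC_22mth against ISC_2mth, under each setting of the fit, with standard errors as bars. Mir6236 lies between -2.52 and -1.81, lower than the other loci throughout, and total counts give the lowest value for each locus.

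Levels of different genes can be compared only per length. Divided by the exon bases that no other gene shares, the level was 2008, 1469, 719 and 926 CPM per kilobase for CT010467.1, in the order ISC_2mth replicates 1 and 2 and ISC_22mth replicates 1 and 2. This takes its reads as counted on the 644 unshared bases alone, which the files do not show. Over all of its 2466 exon bases the level was 524.5, 384, 188 and 242 CPM per kilobase. Mir6236 had 1297, 1147, 252 and 348 CPM per kilobase, which lay between these values in every pool, so that the order of CT010467.1 and Mir6236 depends on the length taken. Gm15564 had 125, 117, 55.2 and 73.8 CPM per kilobase, below both in every pool. Lars2, for comparison, had between 32.6 and 61.9 CPM per kilobase.

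Lars2, which charges mitochondrial tRNA with leucine and shares a run of bases with Gm15564, was not among the members. How many of its counts lie on that run is not shown, and the likeness of the run to rRNA was not measured. Lars2 had 9969 and 9767 counts in ISC_2mth against 4789 and 5450 in ISC_22mth. Its level fell from 666 ± 28.7 CPM to 404 ± 59.3 CPM (SD, n = 2 pools each), which is -0.72 on the log2 scale (standard error 0.11, edgeR FDR = 0.0021), and the call was kept under all 15 alternatives, where the FDR was between 3.6e-10 and 0.0052. There were 14.96 and 14.9 counts on Gm15564 per 100 counts on Lars2 in ISC_2mth, against 12.5 and 13.6 in ISC_22mth. Of 10 tested genes from around Lars2 on chromosome 9, itself included, Lars2 was called lower and 0 were called higher in edgeR, limma or DESeq2, with Slc6a20a (0.86, FDR = 0.18) the other gene with an unadjusted p under 0.05 in edgeR. Their median log2 fold change was -0.0011.

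Gm26917, the lincRNA on the plus strand that ends beside CT010467.1 (chr17:39843013-39846341), shared no exon base with another gene. It had 1539 and 1077 counts in ISC_2mth against 2159 and 511 in ISC_22mth. The old pools lay on either side of the young ones, and its change of 0.21 on the log2 scale (standard error 0.34, edgeR FDR = 0.81) did not pass the test. Leaving out either old pool gave a call, in opposite directions, at -1.08 (edgeR FDR = 3.3e-10) without ISC_22mth replicate 1 and at 0.88 (edgeR FDR = 4.5e-09) without ISC_22mth replicate 2, so that no direction can be given. Per 100 counts on CT010467.1 there were 8.20, 7.53, 35.2 and 7.01 counts on Gm26917, so that ISC_22mth replicate 1 alone stood apart, the pool that also had the highest summed level of Paneth cell markers, whose part in the value was not tested.

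Over the 4 pools, the pattern of the loci was compared with that of 13689 other genes by the Euclidean distance between log2 CPM values centred on their mean. These log2 values were computed with a prior count of 2, an amount added to the counts before the log. The genes nearest to the mean pattern of the loci were Rcor2, which encodes a corepressor, at a distance of 0.10, 4930590J08Rik and Prpf40b, which encodes a splicing factor, at 0.13 each, Kif12, a kinesin gene, at 0.20, and Myo5a, a myosin gene, at 0.22. The median distance was 1.45, and Lars2 stood at rank 265 with 0.63. Rcor2 had 34, 30, 8 and 10 counts and Prpf40b had 109, 95, 28 and 40 counts, in the order given above. The prior count pulls the log2 values of such low counts together most, so that the distances and order of these genes depend on it. Other prior counts were not tried. Among the loci themselves, the distance was 0.30 between CT010467.1 and Gm15564, 0.99 between CT010467.1 and Mir6236, and 1.12 between Mir6236 and Gm15564. Gm15564 lay nearer to Lars2, at 0.21, than to either other locus. These distances rest on 4 libraries shared by all genes and are a description.

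The machinery that makes and trims rRNA was read from the same fit, with lists chosen for this purpose. Of 22 tested genes of the RNA polymerase I machinery, which transcribes the rRNA precursor, 0 passed FDR 0.05 in either direction in edgeR's quasi-likelihood test, with 11 fold changes above and 11 below 0 and a median of 0.0089. At the lowest p stood Smarca5, a chromatin remodeller, at 0.50 on the log2 scale (standard error 0.13, FDR = 0.052), and Taf1d, a subunit of the promoter selectivity factor, with 0.42 (standard error 0.12, FDR = 0.072). These 2 genes were called higher by limma voom and by edgeR's likelihood ratio test, and 0 genes of the list were called by DESeq2. Before adjustment, 4 genes of the list (Smarca5, Taf1d, Twistnb and Polr1d) had a p under 0.05 in the quasi-likelihood test, as had 2316 of all 13692 genes.

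Of 66 tested genes for cleavage and modification of rRNA, 2 were called higher in ISC_22mth and 0 lower, beside 1.63% and 0.628% of all genes, with a median log2 fold change of 0.036. Npm1, the nucleolar chaperone nucleophosmin, had 4119 and 4544 counts in ISC_2mth against 5316 and 5870 in ISC_22mth. It rose from 292 ± 11.9 CPM to 441 ± 55.4 CPM (SD, n = 2 pools each), which is 0.59 on the log2 scale (standard error 0.11, edgeR FDR = 0.010). Nop58, a core protein of the box C/D particles that guide rRNA methylation, rose from 107 ± 0.242 CPM to 160 ± 9.48 CPM (SD, n = 2 pools each), which is 0.58 on the log2 scale (standard error 0.12, edgeR FDR = 0.013). Both calls were lost with total counts, where the log2 fold changes were 0.11 and 0.086, and without ISC_2mth replicate 1, where they were 0.55 and 0.58. That of Nop58 was also lost without ISC_2mth replicate 2, at 0.57 (edgeR FDR = 0.055).

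Of 20 tested genes for rRNA decay and the exosome, which trims and degrades rRNA, 0 were called by edgeR, limma or DESeq2, and their median log2 fold change was 0.075. The genes nearest the threshold were Exosc8 and Exosc3, exosome subunits, with 0.42 (standard error 0.15, edgeR FDR = 0.17) and 0.44 (standard error 0.19, edgeR FDR = 0.23). Of 23 genes for RNA polymerase III and the 5S RNA particle, 0 were called by these tools, with a median of 0.080 and a range from -0.52 to 0.45. Before adjustment, 3 genes of decay and the exosome (Exosc8, Exosc3 and Skiv2l2) and 1 of the RNA polymerase III list (Gtf3c3) had a p under 0.05 in edgeR. With total counts as the scaling, the medians of these 4 lists were between -0.48 and -0.40, beside a median of -0.495 over all genes.

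The rRNAs of the mitochondrial genome went the other way from the loci. mt-Rnr1, the small-subunit rRNA of mitochondria, had 194900 and 193500 CPM in ISC_2mth against 309100 and 310400 CPM in ISC_22mth, and rose by 0.67 on the log2 scale (standard error 0.044, edgeR FDR = 7.1e-08). mt-Rnr2, the large-subunit rRNA, had 273100 and 348000 CPM against 506100 and 470300 CPM, and rose by 0.65 on the same scale (standard error 0.072, edgeR FDR = 2.7e-05). Both calls were kept under all 15 alternatives, but with total counts the rises were only 0.18 (edgeR FDR = 0.023) and 0.17 (edgeR FDR = 0.029). For each count on the 5 loci there were 301 and 458 counts on the mitochondrial rRNAs in ISC_2mth, against 1511 and 1115 in ISC_22mth. The fold changes of the loci were -2.03, -1.08 and -0.91 also where the scaling was computed without mt- genes and the 5 loci.

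**Figure D5:**
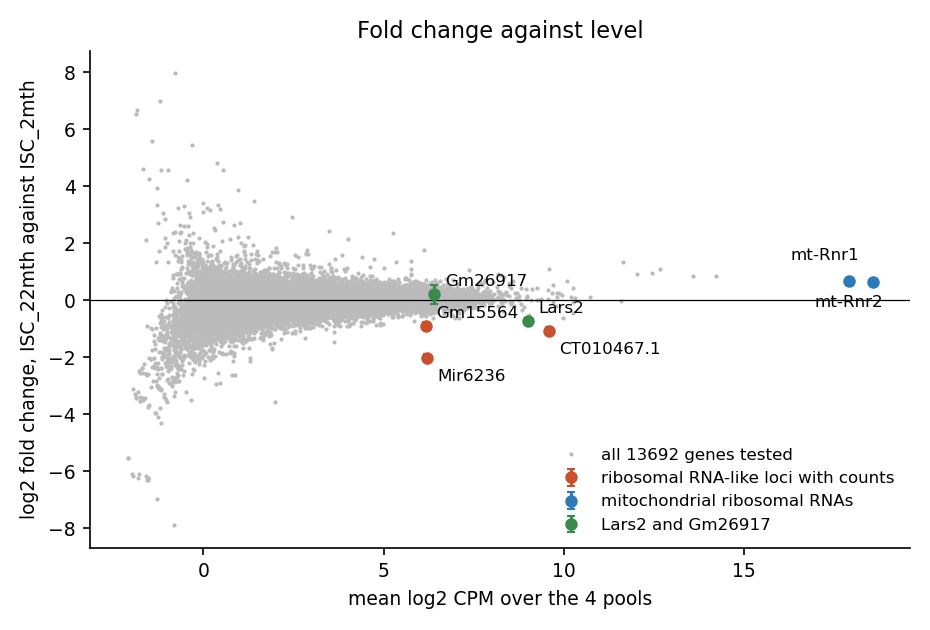
Log2 fold change, ISC_22mth against ISC_2mth, against the mean log2 CPM over the 4 pools for all 13692 genes tested (grey), with standard errors for the named genes. The 3 loci with counts, at -2.03, -1.08 and -0.91, and Lars2 lie below 0, Gm26917 lies at 0.21, and the mitochondrial rRNAs lie above 0 at the highest levels.

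Other rows that the annotation types as rRNA or microRNA held few counts, except Gm23935. Beside CT010467.1, 353 rRNA genes were listed, 77 of them had counts, and their counts summed to 106 and 124 in ISC_2mth against 97 and 96 in ISC_22mth. The 2 that passed the filter were n-R5-8s1 with 11, 17, 11 and 22 counts, and Gm25180 with 12, 12, 11 and 13 counts, and neither passed the test. Their log2 fold changes were 0.47 (standard error 0.67) and 0.22 (standard error 0.73). Beside Mir6236 and Gm23935, 2145 microRNA genes were listed, of which 330 had counts that summed to 726 and 684 at the young age against 559 and 562 at the old age. Gm23935, a row of 1 annotated microRNA on chromosome 16 that was listed with the rRNA-like rows, had 16569 and 21310 counts in ISC_2mth against 8058 and 12694 in ISC_22mth. Its pools did not overlap in counts, and its log2 fold change of -0.63 (standard error 0.17) missed the threshold in edgeR's quasi-likelihood test (FDR = 0.051). It passed in 11 of 15 alternatives, while DESeq2 gave an FDR of 0.63. The value moved with each pool left out, to -0.78 (edgeR FDR = 2.2e-05) and -0.475 (edgeR FDR = 0.058) without ISC_2mth replicate 1 or 2, and to -0.30 (edgeR FDR = 0.11) and -1.07 (edgeR FDR = 2e-16) without ISC_22mth replicate 1 or 2. Of the other rows listed as rRNA-like, Gm10800, Gm10801, Gm26870, Gm10717, Gm10720 and Gm21738 had between 1 and 5 counts over the 4 pools. They did not pass the filter, and their likeness to rRNA was not measured.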

How the data were processed

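RNA of sorted ISCs was sequenced as single-end reads in 4 libraries, 2 per age. The submitters' processing notes name FastQC, Trimmomatic 0.30, STAR 2.4.2a and featureCounts, and the authors counted reads in exons of the GENCODE vM15 genes of GRCm38 and deposited the raw counts per gene, without normalization. The strand setting, and what was done with reads of several alignments, are not given in the sources used here. The labels gave age and replicate.

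A gene was kept (13692 of 52459) if any 1 library held over 5 of its reads, worth over 1 CPM. Ages were compared with edgeR 4.0.16 (R 4.3.3), TMM scaling, glmQLFit and glmQLFTest, age as the only term, and Benjamini-Hochberg adjustment over those genes, calling an FDR under 0.05. The F value and the fold change gave the standard error. The alternatives tried were voom with sample quality weights (limma 3.58.1, the tool of the study), DESeq2 1.42.0 with its independent filtering off, the likelihood ratio test of edgeR, 5 other scalings, 2 other filters, the replicate number as a block, and each library left out in turn. With 2 pools per age, an exact permutation test has only 3 ways to split the pools, and none was used. The fits were tested on simulated counts.

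Positions, exon overlap and shared 50-base stretches came from GENCODE vM21, matched by symbol for 47976 rows, since vM15 was not used here. Sequences came from the vM21 transcripts (GRCm38), and that of Mir6236 is not reported here. Replicates of an age differed by more than sampling noise (chi-square per gene of 9.42 and 7.11) and were kept as separate libraries. The loci and the gene lists were chosen with earlier results of these data known. Named are the loci, Lars2, the mitochondrial rRNAs and the 5 genes of nearest pattern. Further named are at most 5 genes of lowest p per list, all detected members of small lists (8 or fewer) and a few cell markers. Gm26917 lies in a list of rows taken as rRNA-like.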

Additional observations from a re-analysis of the deposited data

How the results depend on the processing

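The fold changes of the 3 loci kept their direction under all 15 alternatives. Total counts gave -2.52 for Mir6236, -1.58 for CT010467.1 and -1.40 for Gm15564, and moved the median of all genes to -0.495; relative to that median the values were -2.03, -1.08 and -0.91. Over the other 10 alternatives with all pools, the ranges were -2.09 to -2.03, -1.14 to -1.07 and -0.97 to -0.91. With 1 pool left out, so that a lone pool is taken to vary like the others, they were -2.28 to -1.81, -1.29 to -0.84 and -1.13 to -0.71. The log2 ratio of the share of all counts on the 5 loci, -1.64, was -1.21 outside mt- genes, -1.56 without Mir6236, -1.97 without CT010467.1, and -1.89 to -1.35 with 1 pool left out.

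The number of genes with an FDR under 0.05, 309 (86 lower), was 197 with DESeq2, 611 with the likelihood ratio test, 554 without a filter, 4632 (4536 lower) with total counts, 320 (142 lower) with total counts outside mt- genes, and 151 to 710 with 1 pool left out, the fewest without ISC_2mth replicate 1 and the most without ISC_22mth replicate 2. Genes of the fixed lists past the threshold, 9, numbered 66 with total counts and 4 to 19 with 1 pool left out. Deviations of same-numbered pools had a correlation of -0.00015 over 13692 genes, so that over all genes together these pools did not deviate alike. A pairing in part of the genes was not tested, and with the replicate number as a block 624 genes passed instead of 309. Gm26917, at 0.21, was -0.052 in voom, -0.31 with total counts, -0.046 with the replicate block, -0.050 without ISC_2mth replicate 2, -1.08 without ISC_22mth replicate 1 and 0.88 without ISC_22mth replicate 2. Where no construction shows it, the cause of these shifts was not tested. Rows under about 3 counts were limited by depth; the 2 loci at 0 have only 9 and 0 exon bases of their own.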

Other observations

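Of 9 tested nuclear-retained long noncoding RNAs, 3 were called lower in ISC_22mth and 0 higher by edgeR, limma and DESeq2, beside 0.628% of all genes called lower in edgeR. The median log2 fold change of the list was -0.064, but -0.295 without ISC_22mth replicate 1 and 0.027 without ISC_2mth replicate 2, so that no direction of the list can be given. Malat1, an abundant RNA of nuclear speckles, had 20500 and 21649 counts in ISC_2mth against 14447 and 12260 in ISC_22mth, and changed by -0.44 on the log2 scale (standard error 0.097, edgeR FDR = 0.020). Kcnq1ot1, an antisense RNA of an imprinted domain, had -0.52 (standard error 0.12, edgeR FDR = 0.023), and Neat1, the scaffold of paraspeckles, had -0.50 (standard error 0.12, edgeR FDR = 0.040). All 3 calls were lost without ISC_2mth replicate 1, where the log2 fold changes were -0.45, -0.35 and -0.51. Those of Malat1 and Neat1 were also lost without ISC_2mth replicate 2 (-0.435 and -0.485), and that of Neat1 without ISC_22mth replicate 2 (-0.376).

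Of 15 tested replication-dependent histone genes, 1 was called higher in ISC_22mth and 0 lower, beside 1.63% and 0.628% of all genes, and the median log2 fold change was -0.27, with -0.078 without ISC_22mth replicate 1 and -0.598 without ISC_22mth replicate 2. Hist1h2bc had 94 and 111 counts in ISC_2mth against 165 and 172 in ISC_22mth, a log2 fold change of 0.94 (standard error 0.21, edgeR FDR = 0.023), and the call was lost in 3 of 15 alternatives, at 0.936 with DESeq2, 0.852 without ISC_2mth replicate 1 and 0.453 with total counts. Of 17 structured noncoding RNAs, 10 had counts and 3 passed the filter, and 0 of these were called by edgeR, limma or DESeq2, and 0 had an unadjusted p under 0.05 in edgeR's quasi-likelihood test (1 in limma). Rpph1, the RNA of ribonuclease P, had 27 and 15 counts at the young age against 44 and 28 at the old age (log2 fold change 0.98, edgeR FDR = 0.30). Scarna2, a guide RNA of Cajal bodies, had 34 and 37 against 15 and 24 (-0.63, edgeR FDR = 0.53), and Rn7sk, which holds a transcription elongation factor, had 438 and 735 against 332 and 729 (0.099, edgeR FDR = 0.89). With 1 pool left out, the median of these 3 ran from -0.651 to 0.597.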
